A study of Mus musculus with 4 samples.

Results

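The account covers 60 mouse genes of cell cycle entry and DNA replication, compared between 2 sorted cell populations of the embryonic kidney. The genes were taken by name, from a list drawn up with earlier results of these data known: cyclins, cyclin-dependent kinases, their inhibitors, the Rb and E2F families, origin licensing and helicase genes, nucleotide supply, p53 and checkpoint genes, and markers of dividing cells. On the array 56 of the 60 were found under the gene name in the scanner files and 4 (Orc1, Orc2, Orc6 and Cdc45, listed there under older names) through their transcript accession, with 78 probes in all. A probe had to be well above background on both arrays of 1 population or the other to be tested. That left 59 of the 60 members among 24150 genes or transcripts tested, 57 of them well above background on all 4 arrays. Cdk6 and Cdkn2b passed only through the Six2GFP-negative arrays, so their difference was in part fixed by the filter, and Cdkn2a had no probe that passed.

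The kidneys came from E15.5 mouse embryos (E counts days of embryonic development) of a mixed 129 and C57BL/6 background carrying a green fluorescent reporter called Six2GFP, and fluorescence-activated sorting parted GFP-positive from GFP-negative cells. Each population was hybridised to 2 one-colour Agilent arrays, 1 per numbered set. The Six2GFP-positive cells are described as nephron progenitors, the cells that build new nephrons around the ureteric bud tips, and the Six2GFP-negative cells are the rest of the kidney. The cell type label calls all 4 samples nephron progenitors, and a description field of all 4 mentions tamoxifen, which the protocols do not. The sources used here do not say how the reporter was built. Nothing states that the 2 sets came from separate litters, so p-values measure only the spread between these samples, which may be technical. All 4 arrays shared 1 slide and 1 scan.

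A cell enters the cycle when D-type cyclins with Cdk4 or Cdk6, and then E-type cyclins with Cdk2, phosphorylate the Rb proteins and release E2F transcription factors, whose targets include the genes that copy DNA. Replication origins are first licensed by the origin recognition complex, Cdc6 and Cdt1, which load the Mcm helicase, while the Ink4 and Cip/Kip inhibitors hold the kinases back. In the developing kidney nephron progenitors must both renew themselves and supply differentiating cells, and the cells they give rise to divide as well.

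E2F-type letters stood in the promoters of some members on both sides of the comparison, on the lower side only in E2f7. The probes of E2f7 disagree in direction, as given below. The sequences are shown because they include genes called on either side. They come from RefSeq promoters (GRCm38.p6), which were matched for 51 of the 60 members, and the search covered the 250 bases before the annotated start on both strands. The letters searched were TTTCGCGC, TTTGGCGC, TTTCCCGC and TTTGGCGG for E2F and TTTGAA for the cell cycle homology region (CHR), an element of promoters active late in the cycle. An E2F-type run was found for 11 of the 51 members, or 21.6%, against 3.47% of the 13760 tested genes with a promoter and 1.96% of all 32851 promoters in the table. A TTTGAA run was found for 11 of 51 as well, against 13.8% of tested genes and 16.0% of all promoters. Capitals mark the E2F-type letters, or the CHR letters in the Top2a stretch, with overlapping runs joined; the E2f3 stretch also holds a TTTGAA run, left in lower case. Each stretch is printed 5′ to 3′ on the strand of its gene.
Mcm6, chr1:128359774-128359845, minus strand, first capital 110 bases before the start: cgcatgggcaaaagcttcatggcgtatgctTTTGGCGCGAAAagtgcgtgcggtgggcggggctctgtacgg
Mcm6, chr1:128359715-128359782, minus strand, 47 bases before the start: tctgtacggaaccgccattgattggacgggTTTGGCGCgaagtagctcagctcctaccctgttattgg
Mcm7, chr5:138172011-138172078, minus strand, 165 bases before the start: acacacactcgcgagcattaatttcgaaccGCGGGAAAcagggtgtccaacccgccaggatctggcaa
E2f3, chr13:29986064-29986104, minus strand, 11 bases before the start: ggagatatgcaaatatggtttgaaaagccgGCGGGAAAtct
E2f7, chr10:110745211-110745278, plus strand, 198 bases before the start: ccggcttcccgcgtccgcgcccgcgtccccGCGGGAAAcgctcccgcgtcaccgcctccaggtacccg
Top2a with CHR letters, chr11:99024190-99024242, minus strand, 23 bases before the start: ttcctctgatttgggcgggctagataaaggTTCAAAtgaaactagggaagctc
Of the 9 members that were higher in Six2GFP-positive cells, 3 (Mcm6, Mcm7 and E2f3) held an E2F-type run, as did 6 of the 32 members with a promoter that did not pass. Of the 12 that were lower, 9 had a promoter in the table and 1 of them (E2f7, whose probes disagree) held one. The TTTGAA letters were held by 3 of the 9 higher members and by 2 of the 9 lower ones, Ccnb2 and Cdkn2b. Of the 32 that did not pass, 6 held them. A second Top2a run, 179 bases before the start, is not printed. These matches describe letters in a window.

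Taken over all members, the populations were near even, with a few large differences downward. Of the 59 members tested, 9 were higher and 12 lower in Six2GFP-positive cells at an adjusted p of 0.05 (limma, two-sided, adjusted by Benjamini-Hochberg over the 24150 genes). Among all genes 38.9% passed that threshold, 20.6% higher and 18.3% lower, so the members' 35.6% was near the background. Of all calls 52.9% were higher, and 74.1% with centring on the array median, which raised the median of all genes to 0.40 and gave 25 members higher and 9 lower. In bulk samples fewer cells of a type and less RNA per cell cannot be told apart. Of all genes 62.7% had a difference above 0, as had 37 of the 59 members, so a list with most members above 0 is to be read against that share. The median log2 difference, positive minus negative, was 0.13 over the members and 0.15 over all genes. A total of 44 members (74.6%) lay within 0.5 log2 of 0, against 64.8% of all genes. No member was called and at least 2-fold higher, against 3.62% of all genes, and 5 were called and at least 2-fold lower (Rprm, Cdkn2b, Cdk6, Ccnd1 and Cdkn2c), against 12.7%. Levels are log2 signals with the 75th percentile of the same array subtracted, and they are compared between arrays for 1 gene only.

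**Figure D1:**
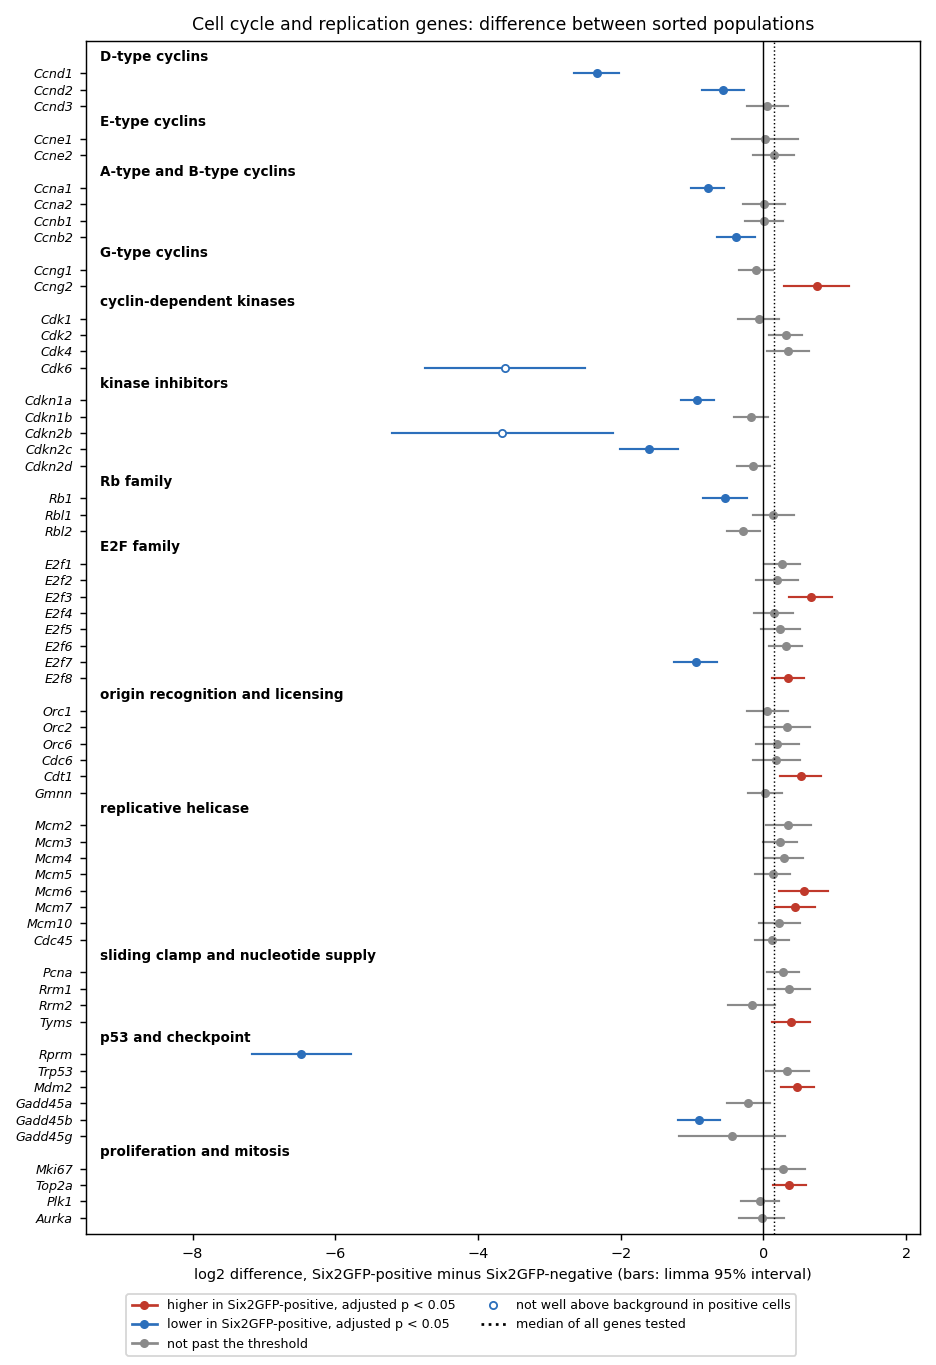
Log2 difference of each of the 59 tested members (x axis, Six2GFP-positive minus Six2GFP-negative, with limma's 95% interval), grouped by role, with the median of all genes at 0.15 as a dotted line. Most points lie near 0, while Rprm at -6.48, Cdkn2b at -3.66, Cdk6 at -3.62 and Ccnd1 at -2.34 stand far to the left.

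D-type cyclins are the regulatory subunits that carry growth signals to Cdk4 and Cdk6. Ccnd1 was 2.46 and 2.45 on positive arrays against 4.68 and 4.90 on negative ones. The groups did not overlap, and the difference of -2.34 ± 0.11 (SE, n = 2 arrays per group) was a 5.06-fold lower signal in Six2GFP-positive cells (limma adjusted p = 9.47e-04). Its probe lies at mm9 chr7:152116202-152116261. Ccnd2 was 2.49 and 2.68 on positive arrays against 3.13 and 3.18 on negative ones, a smaller difference in the same direction (-0.57 ± 0.11, adjusted p = 0.0231). Ccnd3 gave 4.06 and 4.23 against 4.06 and 4.13, with groups that overlapped and an interval of the difference from -0.24 to 0.34. The 3 D-type cyclins therefore differed from each other in size, from a 5.06-fold lower signal to a value near 0. The Ccnd2 call was lost with centring on the array median (-0.31, adjusted p = 0.112) and when any 1 array was left out (adjusted p from 0.0604 to 0.102), and the Ccnd1 call was kept each time (0.00687 to 0.00941).

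E-type cyclins, which act with Cdk2 at the start of S phase, had no member past the threshold. Ccne1 was 2.84 and 3.08 against 2.78 and 3.11, with overlapping groups and a difference of 0.02 ± 0.17 (adjusted p = 0.940). A dimmer Ccne1 probe gave -1.48 and -1.45 against -1.72 and -1.69, with groups apart by 0.24 ± 0.08 (adjusted p over all probes = 0.0876). Ccne2 was -3.54 and -3.38 against -3.63 and -3.58, a difference of 0.14 ± 0.10 (adjusted p = 0.316). Among the cyclins of S phase and mitosis, Ccna2 was 2.85 and 2.97 against 2.83 and 2.98, and Ccnb1 was 3.17 and 3.25 against 3.15 and 3.26. Both genes gave overlapping groups and differences of 0.01 ± 0.11 and 0.01 ± 0.10, with intervals from -0.29 to 0.31 and from -0.26 to 0.27. Ccnb2, the other B-type cyclin, was lower: 3.38 and 3.24 on positive arrays against 3.66 and 3.72 on negative ones (-0.38 ± 0.10, adjusted p = 0.0447). Ccna1, best known as the A-type cyclin of germ cells, was dim on every array at -5.45 and -5.39 against -4.64 and -4.64, and differed by -0.78 ± 0.08 (adjusted p = 0.00598). With normexp background correction the Ccna1 difference was -0.23 and not past the threshold (adjusted p = 0.0648), and the Ccnb2 call was lost with centring on the array median (-0.13, adjusted p = 0.419) and when any array was left out (adjusted p from 0.107 to 0.192).

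The G-type cyclins are not kinase partners of the usual kind: Ccng1 is a p53 target, and Ccng2 is linked to arrest. Ccng2 was -1.88 and -1.97 on positive arrays against -2.48 and -2.87 on negative ones, so both positive arrays were higher (0.75 ± 0.16, adjusted p = 0.0328), the largest upward difference of the members. Ccng1 was -0.87 and -0.83 against -0.79 and -0.72 (-0.10 ± 0.09, adjusted p = 0.399). Without negative array 1 the Ccng2 difference was past the threshold (adjusted p = 0.0299), and without any 1 of the other arrays it was not, up to an adjusted p of 0.127.

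Of the 4 kinases, Cdk2, Cdk4 and Cdk1 did not pass, and Cdk6 was tested only because it was well above background in negative cells, so its call is no independent result. Its signal was -7.62 and -8.72 on the positive arrays, neither well above background, and -4.51 and -4.59 on the negative arrays, both well above it. Set against the dimmest probe that was well above background on each array, Cdk6 was at least 5.27-fold lower in Six2GFP-positive cells (measured means -8.17 and -4.55; limma adjusted p = 0.00669). Cdk4, the other kinase of the same step, was 5.90 and 5.94 against 5.47 and 5.66. Both positive arrays were higher, but the difference of 0.35 ± 0.11 was not past the threshold (adjusted p = 0.0679). The 3 Cdk4 probes gave 0.35, 0.36 and 0.39, and the last of these passed when every probe was tested on its own (adjusted p over all probes = 0.0464). Cdk2 stood at 0.31 ± 0.08 (adjusted p = 0.0506), just short of the threshold, and Cdk1, the kinase of mitosis, at -0.07 ± 0.10 with overlapping groups. With normexp background correction the Cdk6 difference shrank to -0.70, still past the threshold (adjusted p = 0.00179).

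Of the 5 kinase inhibitors tested, 3 were lower and none was higher in Six2GFP-positive cells, against 18.3% and 20.6% of all genes. Of the 3, Cdkn2b passed the filter only through the negative arrays. All 5 differences were below 0, with a median of -0.93 against 0.15 over all genes. That median is the value of Cdkn1a, whose probes disagree; with the mean of a gene's probes it was -0.17, with 2 lower. Cdkn2c, the Ink4 protein p18, was -3.83 and -3.97 on positive arrays against -2.45 and -2.15 on negative ones. The groups were well apart, by -1.60 ± 0.14 or 3.04-fold (adjusted p = 0.00380; probe at mm9 chr4:109333508-109333567). Cdkn2b, the Ink4 protein p15, was at -7.44 and -8.96 in positive cells, not well above background, and at -4.40 and -4.68 in negative cells. Set against the dimmest probe that was well above background on each array, it was at least 5.32-fold lower (measured means -8.20 and -4.54; limma adjusted p = 0.0145). Cdkn2b was tested only because it was well above background in negative cells, so its call is no independent result. A second probe was not well above background on any array. With normexp background correction the Cdkn2b difference was -0.85, and without negative array 1 or 2 it was no longer past the threshold (highest adjusted p = 0.0698).

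Cdkn1a, the Cip/Kip protein p21 and the best-known p53 target among inhibitors, was -3.18 and -3.18 on positive arrays against -2.29 and -2.22 on negative ones. The difference was -0.93 ± 0.08 (adjusted p = 0.00385) with the brightest probe, at mm9 chr17:29237377-29237436. A dimmer probe at chr17:29227986-29228045 gave 0.59 ± 0.39 (adjusted p over all probes = 0.289), and the mean of both gave -0.17 (adjusted p = 0.565). The remaining inhibitors gave smaller values. Cdkn1b, the Cip/Kip protein p27, was 1.16 and 1.10 against 1.29 and 1.32 (-0.18 ± 0.08, adjusted p = 0.170), and Cdkn2d, the Ink4 protein p19, gave -0.14 ± 0.08 (adjusted p = 0.240). With centring on the array median 2 of the 5 inhibitors had a difference above 0, while the 3 calls were kept. Cdkn2a, the Ink4a and Arf locus, had 2 probes, neither well above background on any array, so no difference is given.

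**Figure D2:**
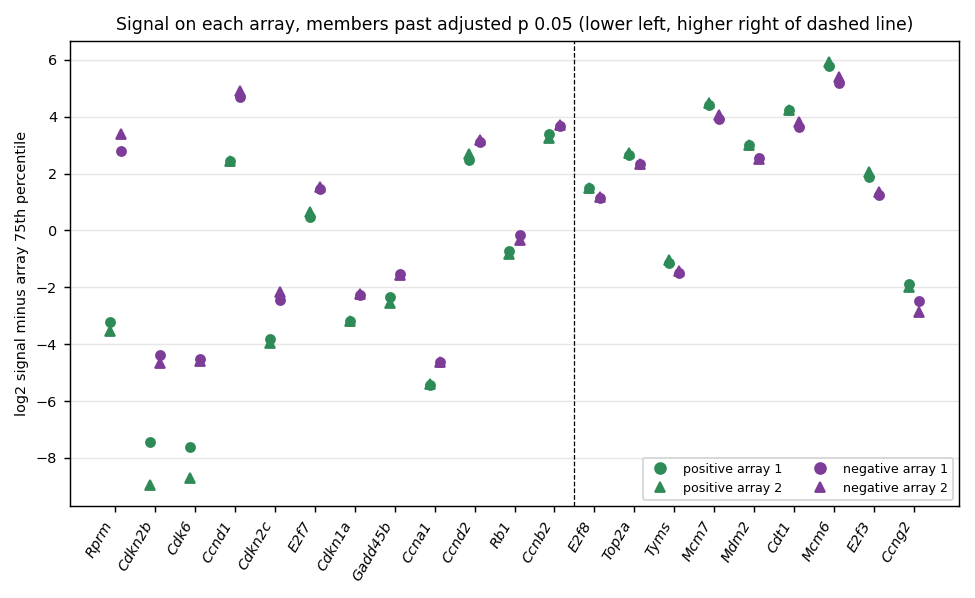
Log2 signal after subtracting the 75th percentile of each array (y axis) on each array for the 21 members past the threshold, ordered by difference, with Six2GFP-positive arrays in green and Six2GFP-negative arrays in purple. The 2 arrays of a population lie close together for most genes, while the positive arrays of Cdkn2b (-7.44 and -8.96) and Cdk6 (-7.62 and -8.72), not well above background, lie apart.

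The Rb proteins restrain E2F factors. Rb1 itself was lower at -0.74 and -0.82 on positive arrays against -0.15 and -0.34 on the negative arrays (-0.53 ± 0.11, adjusted p = 0.0291). The p107 gene Rbl1 and the p130 gene Rbl2 did not pass. Rbl1 gave 0.14 ± 0.10 (adjusted p = 0.332), and Rbl2 was -3.10 and -3.06 against -2.81 and -2.80 (-0.28 ± 0.08, adjusted p = 0.0630). The Rb1 call was lost with centring on the array median (adjusted p = 0.0940), and when any 1 array was left out (0.0548 to 0.132).

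In the E2F family 2 of 8 genes were called higher and E2f7 lower, near the shares of all genes (20.6% and 18.3%). Of the 8, 7 were above 0 and 6 above the median of all genes. E2f3, an activator of S phase genes, was 1.88 and 2.05 on positive arrays against 1.25 and 1.36 on negative ones (0.66 ± 0.11, adjusted p = 0.0170), and its second probe also gave a higher value (0.46 ± 0.09, adjusted p over all probes = 0.0286). The other activators, E2f1 and E2f2, gave 0.25 ± 0.09 and 0.19 ± 0.11 (adjusted p = 0.0962 and 0.221). E2f4 and E2f5, which act mostly with the Rb relatives as repressors, gave 0.15 ± 0.10 and 0.24 ± 0.10, and the repressor gene E2f6 gave 0.31 ± 0.08 (adjusted p = 0.0525).

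The paired atypical repressors E2f7 and E2f8 had opposite signs. E2f8 was 1.49 and 1.51 against 1.15 and 1.17 (0.34 ± 0.08, adjusted p = 0.0394), and E2f7 was 0.46 and 0.66 against 1.48 and 1.54 (-0.95 ± 0.11, adjusted p = 0.00718). The E2f7 probes disagreed, though. The brighter one, at mm9 chr10:110224331-110224390, is the one given here. The dimmer one, at chr10:110219255-110219314, was higher in Six2GFP-positive cells, at -2.27 and -2.31 against -2.81 and -3.10 (0.66 ± 0.13, adjusted p over all probes = 0.0270). The mean of both probes gave -0.14 (adjusted p = 0.284), so the direction of E2f7 depends on the probe. Calls for E2f3 and E2f8 were lost when any 1 array was left out (adjusted p from 0.0502 to 0.0837 and from 0.106 to 0.171), and E2f8 was also lost with quantile normalization (0.0830).

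Of the 6 origin recognition and licensing genes 1 was called higher, against 20.6% of all genes. All 6 were above 0, and 4 were above the median of all genes. Cdt1, which loads the helicase and is restrained by geminin, was 4.24 and 4.24 on positive arrays against 3.63 and 3.81 on negative ones, so the groups were apart by 0.52 ± 0.10 (adjusted p = 0.0271). Gmnn, the geminin gene, gave 1.26 and 1.29 against 1.21 and 1.29, with a difference of 0.02 ± 0.09 and an interval from -0.22 to 0.26. Cdc6, the other loading factor, gave 0.18 ± 0.12 with its brightest probe and 0.42 ± 0.11 with another (adjusted p over all probes = 0.279 and 0.0484). Of the origin recognition genes none passed. Orc2 was -1.52 and -1.74 against -1.96 and -1.97 (0.33 ± 0.11, adjusted p = 0.0894), and Orc1 and Orc6 gave 0.05 ± 0.10 and 0.20 ± 0.11. The Cdt1 call was lost with quantile normalization (adjusted p = 0.0561) and when any 1 array was left out (0.0510 to 0.119).

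Of the 8 helicase genes 2 were called higher, near the 20.6% of all genes. All 8 were above 0 with groups that did not overlap, and 6 were above the median of all genes. Non-overlapping groups were the rule on these arrays, at 74.8% of all genes. Mcm6 was 5.79 and 5.93 on positive arrays against 5.18 and 5.40 on negative ones (0.57 ± 0.12, adjusted p = 0.0329). Mcm7 was 4.40 and 4.49 against 3.93 and 4.08 (0.44 ± 0.10, adjusted p = 0.0378). The other hexamer subunits did not pass: Mcm2 gave 0.35 ± 0.12, Mcm4 0.29 ± 0.09, Mcm3 0.24 ± 0.08 and Mcm5 0.13 ± 0.09 (adjusted p from 0.0809 to 0.296). Mcm10 and Cdc45, which activate the loaded helicase, gave 0.22 ± 0.10 and 0.12 ± 0.09 (adjusted p = 0.166 and 0.309).

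The list median of the helicase genes was 0.26, which is 0.11 above the median of all genes. With quantile normalization 7 of 8 were above 0, none passed, and the list median lay at -0.02 relative to all genes. With centring on the array median 6 passed, while 10756 of all 24150 genes were higher, against 4973 in the main setting. The list median was still 0.11 above that of all genes with that centring. Each of the 4 arrays left out ended the Mcm6 and Mcm7 calls (adjusted p from 0.0589 to 0.140 and from 0.0725 to 0.164).

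Among the genes of the sliding clamp and nucleotide supply, Tyms, the thymidylate synthase, was higher at -1.15 and -1.03 against -1.51 and -1.44 (0.39 ± 0.09, adjusted p = 0.0414). Pcna, the clamp of the replication fork, was 5.25 and 5.25 on positive arrays against 4.98 and 4.97 on negative ones. Its groups were tight and apart by 0.28 ± 0.08, but it did not pass (adjusted p = 0.0634). The subunits of ribonucleotide reductase did not pass. Rrm1 was 3.48 and 3.64 against 3.15 and 3.26 (0.35 ± 0.11, adjusted p = 0.0666), and Rrm2 gave -0.16 ± 0.12 (adjusted p = 0.333). The Tyms call was lost when any 1 array was left out (adjusted p from 0.101 to 0.183).

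The p53 and checkpoint genes held the largest difference of the 59. Rprm, which encodes reprimo, a p53-inducible mediator of arrest in G2, was -3.23 and -3.55 on positive arrays against 2.80 and 3.38 on negative ones. All 4 arrays were well above background, and the difference of -6.48 ± 0.25 made the signal 89.0-fold lower in Six2GFP-positive cells (adjusted p = 6.44e-04; probe at mm9 chr2:53936668-53936727). Its relative Rprml, from the wider list, was lower as well at -5.48 and -5.23 against -4.24 and -3.68 (-1.39 ± 0.23, adjusted p = 0.0181). Gadd45b, a stress sensor, was -2.35 and -2.54 against -1.53 and -1.56 (-0.90 ± 0.11, adjusted p = 0.00760). Gadd45a gave -0.21 ± 0.11, and Gadd45g was 1.53 and 2.10 against 2.05 and 2.47, with overlapping groups and a difference of -0.44 ± 0.27 (adjusted p = 0.194 and 0.251).

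Mdm2, the ligase that degrades p53 and is itself a p53 target, was higher at 2.99 and 2.99 against 2.53 and 2.50 (0.48 ± 0.08, adjusted p = 0.0189). Trp53 itself was -0.87 and -1.04 against -1.35 and -1.24 (0.34 ± 0.11, adjusted p = 0.0780). Genes known as p53 targets therefore lay on both sides: Rprm was lower, Mdm2 higher, and Ccng1 not past the threshold. Cdkn1a was lower with its brightest probe (-0.93) and not past the threshold with the mean of its probes (-0.17). The Mdm2 call was lost when any 1 array was left out (adjusted p from 0.0643 to 0.101), and Rprm and Gadd45b kept theirs (highest adjusted p 0.00907 and 0.0452).

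The markers of dividing cells were close between populations. Top2a, the topoisomerase of S phase and mitosis, was 2.67 and 2.72 on positive arrays against 2.35 and 2.32 on negative ones (0.36 ± 0.08, adjusted p = 0.0373). Mki67, the Ki-67 gene, gave 4.66 and 4.80 against 4.53 and 4.38 (0.28 ± 0.11, adjusted p = 0.118), and its second probe 0.23 ± 0.10. The mitotic kinase genes Plk1 and Aurka gave -0.05 ± 0.09 and -0.03 ± 0.11 with overlapping groups and intervals from -0.31 to 0.21 and from -0.34 to 0.28. The Top2a call was lost with quantile normalization (adjusted p = 0.120) and when any 1 array was left out (0.0982 to 0.173).

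Other genes of the same pathways were read from wider lists. Of 38 other replication fork genes, 6 (15.8%) were higher, below the 20.6% of all genes, and none was lower. A total of 36 were above 0 and 31 above the median of all genes, with a list median of 0.29 against 0.15. The number called higher was 0 with any 1 array left out, 21 with an intensity trend and 30 with centring on the array median. Of all 24150 genes, 6308 were higher with that trend and 10756 with that centring, against 4973 in the main setting. The largest of the 6 calls were Rfc1, a clamp loader subunit (0.55 ± 0.09, adjusted p = 0.0159), Timeless, a fork protection gene (0.50 ± 0.10), and Pola1, the catalytic polymerase alpha subunit (0.49 ± 0.12). Of 10 other nucleotide supply genes, with a median of 0.38, none was lower, against 18.3% of all genes. Against 20.6% of all genes, 4 of the 10 (40%) were higher. They were Shmt1 (0.69 ± 0.11), Impdh2 (0.69 ± 0.11), Dut (0.66 ± 0.11) and Dtymk (0.44 ± 0.09), with adjusted p from 0.0153 to 0.0278 in limma; with 1 array left out 0 to 3 of the 10 were higher. With quantile normalization the fork list's median was 0.01 above that of all genes, and the nucleotide list's was 0.21 above it.

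Mitotic genes beyond the members were nearer to 0 in the main setting. Of 38, 1 (2.63%) was higher and 1 lower, against 20.6% and 18.3% of all genes. The list median was 0.06 against 0.15. With centring on the array median it was 0.31 against 0.40, and with quantile normalization -0.06 against 0.17. The called genes were the kinetochore gene Cenpf (0.53 ± 0.10, adjusted p = 0.0232) and the phosphatase gene Cdc25b (-0.72 ± 0.08, adjusted p = 0.00738).

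Of 20 other G1 regulators, 6 (30%) were higher and 3 lower, against 20.6% and 18.3% of all genes. The number higher depended on the setting. It was 12 with centring on the array median, where 10756 of 24150 genes were higher. Without a filter on dim probes it was 2, where 2612 of 31875 genes were higher. Myc, a transcription factor that drives growth and cycle entry, was 2.16 and 2.33 on positive arrays against 0.30 and 0.54 on negative ones, a 3.54-fold higher signal (1.82 ± 0.13, adjusted p = 0.00222). Mycl, of the same family, was lower at -3.86 and -3.66 against -1.91 and -1.61 (-2.00 ± 0.15, adjusted p = 0.00261). The Cip/Kip inhibitor gene Cdkn1c, which encodes p57, was 5.001 and 5.10 against 5.94 and 6.04, so it too was lower (-0.94 ± 0.09, adjusted p = 0.00517).

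Of 26 other p53 target and checkpoint genes tested, 7 (26.9%) were higher and 4 lower, against 20.6% and 18.3% of all genes. The list median was 0.27. The largest calls were Perp at -4.17 ± 0.23, Fas at -3.28 ± 0.11 and Pmaip1 at -2.998 ± 0.505 (adjusted p from 5.55e-04 to 0.0186), and Rprml, given above, was the other lower gene. The 7 higher genes were Bbc3 (1.14), Trp53i11 (1.06), Atm (0.91), Phlda3 (0.86), Sesn2 (0.67), Trp53inp1 (0.59) and Chek1 (0.58). With 1 array left out 2 to 5 of the 26 were higher and 3 lower.

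**Figure D3:**
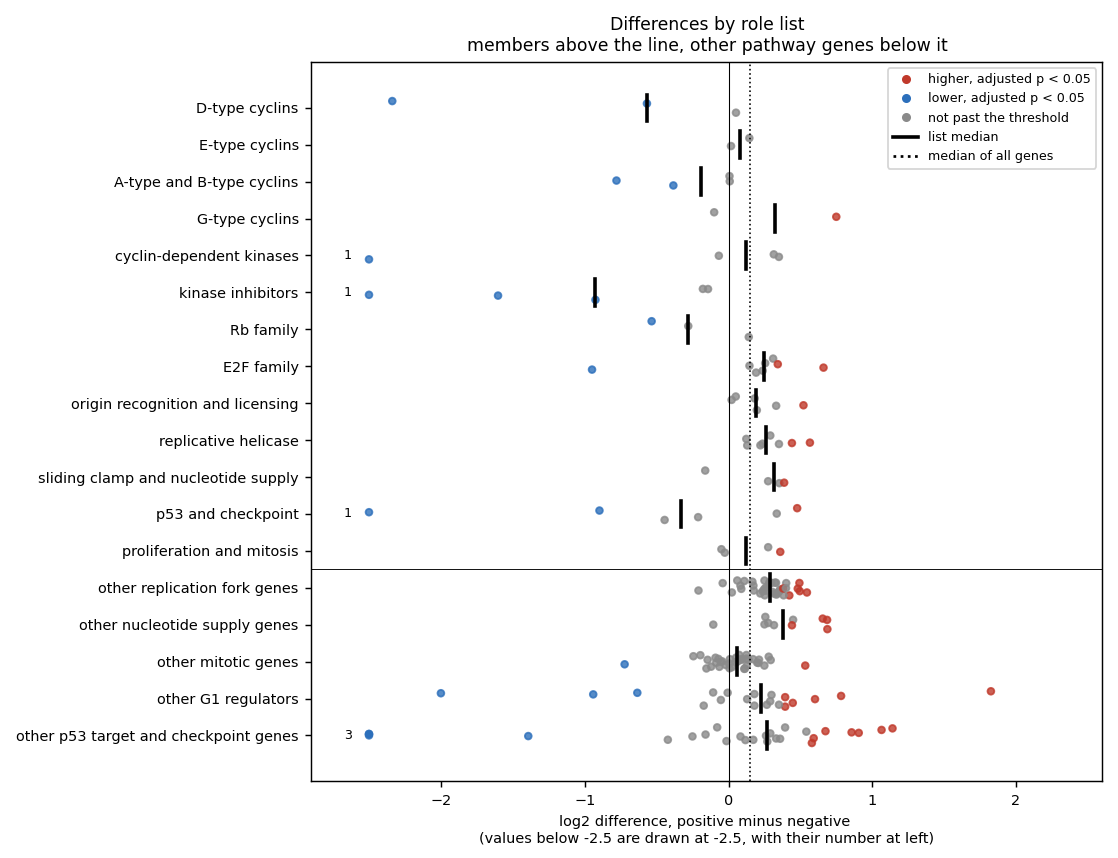
Log2 difference of each gene (x axis, Six2GFP-positive minus Six2GFP-negative) by role list, with list medians as black bars and the median of all genes at 0.15 dotted; the lowest values are drawn at the left edge with their number, and jitter along the y axis has no meaning. With the brightest probe per gene the medians of the kinase inhibitors (-0.93) and D-type cyclins (-0.57) lie lowest, the first of which is -0.17 with the mean of a gene's probes, and those of other nucleotide supply genes (0.38) lie highest.

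The populations also differed in their makeup, and its part in the results was not tested. Six2 was 5.58 and 5.73 on positive arrays against -0.17 and -0.15 on negative ones, in the direction of the labels. Of 12 nephron progenitor markers 11 were higher, and their summed log2 level was 7.76 to 7.80 in positive and 5.77 to 5.80 in negative cells. Of 10 early nephron markers 9 were lower (sums 2.29 to 2.37 against 4.64 to 4.93), of 12 ureteric bud markers 11 (2.84 to 3.03 against 5.17 to 5.50), of 12 stromal markers 10 (5.12 to 5.29 against 7.05 to 7.15) and of 12 endothelial markers 11 (3.33 to 3.37 against 5.43 to 5.47). Of 11 erythroid markers tested 9 were lower (3.52 to 4.05 against 8.18 to 8.26), with Gata1 not well above background on either positive array. Of 12 macrophage and leukocyte markers 4 were lower (2.95 to 3.50 against 3.82 to 4.004). Each value of the negative population is an average over the cell types it holds.

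The members' median difference between arrays, array 1 minus array 2, was -0.04 in positive and -0.08 in negative cells, against 0.01 over all genes in both. Array 1 was the higher of its pair for 20 of 59 members (33.9%) in positive and 13 of 59 (22.03%) in negative cells, against 52.7% and 51.7% of all genes, so the members leaned to array 2 in both populations. Macrophage and leukocyte markers differed more between the positive arrays, by a median of 0.54, with all 12 higher on array 1.

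Under the 16 alternative settings that give 1 value per gene, 4 members kept their call in each: Rprm, Ccnd1, Cdkn2c and Gadd45b. Cdk6 was called wherever it was tested, but it entered only through the negative arrays and its difference was -0.70 with normexp against -3.62 without, so this says nothing of its stability. Leaving out 1 array left 8 or 9 members lower and 0 or 1 higher, from 59, while the share of all genes called fell to between 18.9% and 22.1%.

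**Figure D4:**
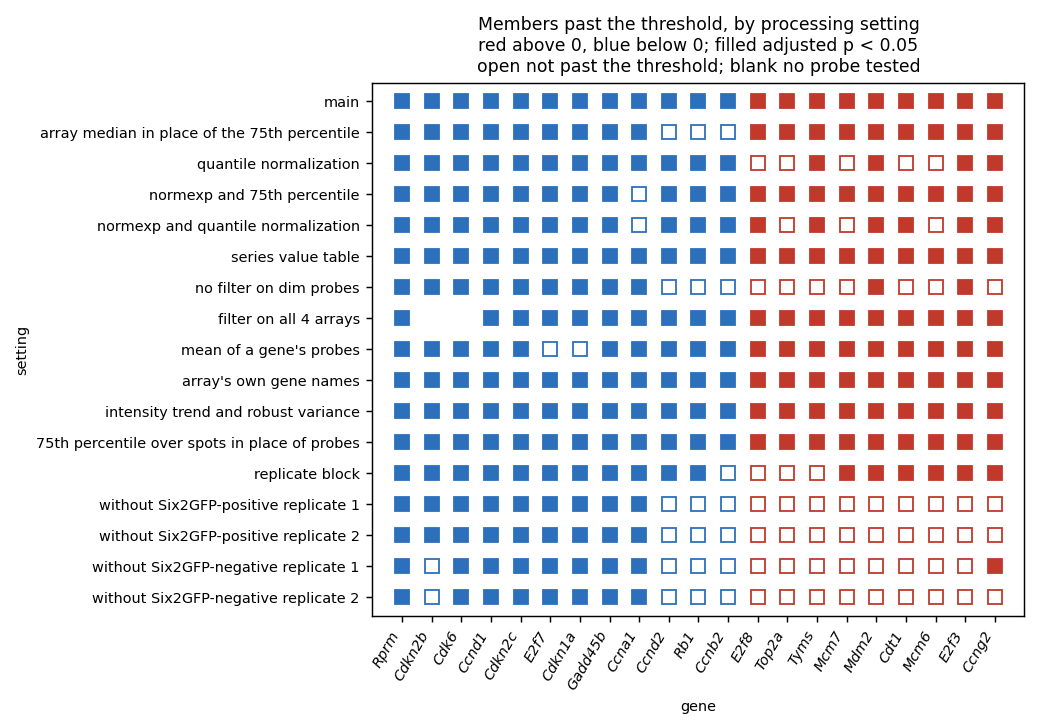
Each of the 21 members past the threshold (x axis) under each setting (y axis), filled where the adjusted p was under 0.05 and open where it was not, red above 0 and blue below. The columns of Rprm, Ccnd1, Cdkn2c and Gadd45b are filled throughout, while the 9 higher members have open squares in most settings that leave out an array.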

How the data were processed

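RNA from sorted cells was labelled with Cy3 and hybridised to 4 one-colour arrays with 60-base probes. Spot brightness was read by Agilent Feature Extraction 10.7.3.1, per the file headers. The deposited intensity values are background-subtracted and detrended within the array, not normalized between arrays, and probe positions refer to mm9. The sources used here do not say how the authors normalized or tested them. The deposited series table holds the same intensity (99.8% of probes within 0.01 log2 on each array) and served as an alternative.

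Values were log2 processed signals, outlier spots left out and spots of a probe averaged, minus the array's 75th percentile over non-control probes (1432 and 1411 signal units on positive, 1604 and 1588 on negative arrays). Between 72.5% and 79.1% of spots were well above background and none was saturated; 2 arrays per group limit the precision. The probe of highest mean signal stood for its gene and was named through its RefSeq accession (GRCm38.p6 table) where one matched, as for 26055 probes. Differences were fitted by limma 3.58.1 (lmFit, eBayes; R 4.3.3), and ± gives limma's standard error. "At least" folds set the bright group's mean against, on each array, the dimmest probe well above background, or the probe itself where brighter. The fit was tested on simulated data. Members and lists were chosen with earlier results of these data known. The rule for named genes took every member past the threshold, the 2 largest differences of each role list, the first-listed members a list needed, and the 3 largest calls per wider list. Rprml, Dtymk and the 7 higher p53 list genes fall outside it, picked once their values were known (chosen after seeing the data). The value of 1 marker gene is not reported here.

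The alternatives were other scalings, normexp background correction with an offset of 50, the series table, other filters, other probe and name rules, an intensity trend, a replicate block, and each array left out in turn. The percentile over spots was added after seeing the data. Slide and scan could not be fitted as a block, since all arrays shared 1 of each.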

Additional observations from a re-analysis of the deposited data

How the results depend on the processing

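In the main setting 9394 genes passed, with 9 members higher and 12 lower. Centring on the array median gave 14525 genes and 25 members higher, of 10756 genes higher and 3769 lower, against 4973 and 4421 in the main setting. Members higher numbered 18 with normexp and the 75th percentile, 19 with an intensity trend and 2 without a filter on dim probes. The number of all genes higher moved as well. It was 6885 with normexp and 6308 with the trend, of 24150, and 2612 of 31875 without the filter. Leaving out 1 array gave 4559 to 5333 genes, 0 to 1 members higher and 8 to 9 lower. The replicate number as a block gave 6 members higher and 12 lower; deviations of same-numbered arrays correlated at 0.22 across genes, and with 2 pairs the labels do not settle whether the numbers pair samples. The percentile over spots gave 11 higher and 12 lower. No called member changed sign under any of the 16 alternatives that give 1 value per gene. Slide or scan as a block was not run, since the arrays share 1 of each. The block ended the calls of Ccnb2, E2f8, Tyms and Top2a and added Gadd45g as lower. The cause of these shifts was not tested. Probes near background, Cdk6 and Cdkn2b in positive cells, set what depth of signal could show.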
